A study of Rattus norvegicus with 8 samples.

Results

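The enzymes described here make or remove nitric oxide and prostaglandins: the nitric oxide synthases Nos2 and Nos3, the arginase Arg1, the cyclooxygenases Ptgs1 and Ptgs2, the terminal prostaglandin synthases Ptges, Ptgis and Ptgds, and the prostaglandin-inactivating dehydrogenase Hpgd. They were chosen by gene symbol, with their difference between the groups already known, so that difference is given as a description without a test. Of the 9 genes, 7 had a row under their symbol among the 31699 rows of the expression table, and 4 of these (Nos2, Arg1, Ptgs1 and Ptgs2) had a mean of at least 1 TPM (a transcript level scaled for gene length and library size) over the 8 samples and entered the comparison of 13103 genes. Hpgd and Nos3 lay under that limit, Ptgds was listed at 0 in all 8 samples, and Ptges and Ptgis were not analysed here.

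RNA-seq was performed on annulus fibrosus cells (AFCs), the cells of the collagen-rich outer ring of the intervertebral disc, isolated from Sprague Dawley rats. The 4 samples labelled Lv-Ctrl had received a lentivirus with the empty short hairpin vector pLVX-shRNA-Puro, and the 4 labelled Lv-Piezo1 a lentivirus with pLVX-shRNA-Puro-Piezo1, which carries a hairpin against the mechanosensitive ion channel Piezo1. Both groups were infected at a multiplicity of 20 for 24 h, grown with 10% serum, and then exposed to cyclic mechanical stretch (CMS) of 20% elongation at 0.5 Hz for 36 h, so the comparison holds stretch and infection constant, and no unstretched or uninfected cells were among these samples. Per the methods of the study, tissue of 8 rats was pooled for a cell isolation, cells were used at the third passage, and the samples of a group are 4 biological repeats. The age of the rats used for cell isolation is not given in the sources used here, and p-values measure only the spread between these samples.

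Nitric oxide synthases oxidise arginine to nitric oxide and citrulline with tetrahydrobiopterin as cofactor. Nos2 is the inducible form and Nos3 the endothelial form, and arginase competes with them for arginine, which it splits into ornithine and urea. Prostaglandins are made from arachidonic acid, which phospholipases A2 release from membranes. Ptgs1, in most cells a constitutive enzyme, and Ptgs2, an inducible enzyme, convert it to prostaglandin H2, from which terminal synthases make prostaglandins E2, D2, F2α and I2. Prostaglandins act on G protein-coupled receptors and are taken up and oxidised by Hpgd. In the intervertebral disc, nitric oxide and prostaglandin E2 are known as inflammatory mediators.

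The transcript of the targeted gene went against the label. The paper reports that knockdown by this hairpin was verified. It also reports lower activity of calpain proteases and less apoptosis with Lv-Piezo1 under stretch. The RNA values here do not measure the channel protein. Piezo1 (ENSRNOG00000056786) ranged from 26.7 to 33.0 TPM in the Lv-Ctrl samples and from 37.7 to 41.4 TPM in the samples labelled Lv-Piezo1, with means of 30.1 ± 2.67 and 39.4 ± 1.75 TPM (SD, n = 4 each). The log2 fold change on the log2(TPM + 1) scale was 0.38 ± 0.06 (SE; limma, Benjamini-Hochberg adjusted p = 8.6e-04), and the exact two-sided permutation test gave p = 0.029, the smallest that 4 samples against 4 allow. This fold change was 0.22 with median-ratio scaling and 0.26 with quantile normalization. Every direction below therefore compares libraries by their labels, whatever the level of the channel was. Rows above 0 numbered 16645 to 17022 in Lv-Ctrl and 17191 to 17657 in Lv-Piezo1. Correlations of log2(TPM + 1) lay between 0.973 and 0.983 within a group and between 0.939 and 0.945 across groups, and no library stood apart from its group. The median log2 difference of all tested genes was 0.14 (Lv-Piezo1 minus Lv-Ctrl) and went to -0.0046 after median-ratio scaling, and values below are to be read against that shift. TPM keeps no depth, so the depth of the libraries is unknown, and values listed near 0 carry little information.

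The cell type label was compared with marker genes. The 16 annulus fibrosus and fibroblast markers summed to 16213 to 19050 TPM in Lv-Ctrl and 18572 to 20199 TPM in Lv-Piezo1. Col1a1, the main collagen of the annulus, was at 3282 ± 137 and 5835 ± 103 TPM, and Scx, a transcription factor of tendon and annulus, at 30.1 ± 5.05 and 56.8 ± 10.5 TPM. The tendon marker Tnmd was listed at 0 in 7 of the 8 samples, and Col2a1, the collagen of cartilage and inner annulus, stayed below 0.6 TPM in each sample. Of 14 tested markers of this list, Comp rose (0.738 ± 0.216 to 2.86 ± 0.221 TPM) and Dcn fell (1456 ± 69.3 to 519 ± 14.9 TPM). Lower without overlap between groups but short of the limit, Fmod was at 68.4 ± 4.45 and 34.0 ± 1.40 TPM, Mkx at 25.4 ± 2.89 and 14.6 ± 1.41 TPM and Thbs2 at 7864 ± 801 and 5303 ± 264 TPM. Higher in the same way were Col1a1, Col1a2, Col3a1, Col5a1, Bgn, Scx and Acan. Among the 14 tested, groups did not overlap for 8 higher and 4 lower markers, against 39.8% higher and 14.5% lower over all tested genes. The shares called over all tested genes were 4.91% higher and 2.76% lower. The median log2 difference of the list was 0.41, against 0.14 over all tested genes. Comp was not called with quantile normalization, and Fmod was called lower under both scalings.

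Markers of other cell types that make nitric oxide or prostaglandins were mostly near 0, apart from those of smooth muscle and pericytes. The 14 macrophage markers summed to 21.8 to 23.6 TPM in Lv-Ctrl and 37.3 to 42.3 TPM in Lv-Piezo1. In this list 6 markers (Adgre1, Cd163, C1qa, C1qb, C1qc and Tyrobp) were listed at 0 in every sample, and the pan-leukocyte gene Ptprc did not exceed 0.01 TPM. Only 2 were tested, of which Cd68 rose (0.955 ± 0.899 to 12.3 ± 0.901 TPM). The other, Cd14, made up most of the Lv-Ctrl sum. It was at 20.9 ± 0.324 and 25.8 ± 1.91 TPM without overlap, short of the limit (log2 difference 0.29). The 10 endothelial markers summed to 25.4 to 34.2 and 33.8 to 38.9 TPM, ranges that overlapped, with Emcn listed at 0 and Cdh5 at no more than 0.06 TPM in every sample. Of the 2 tested, Esam rose (0.203 ± 0.114 to 5.68 ± 0.893 TPM), and Egfl7, which made up most of the sum, was at 29.5 ± 3.76 and 30.7 ± 2.16 TPM. The 12 smooth muscle and pericyte markers summed to 828 to 863 TPM in Lv-Ctrl and 4604 to 4773 TPM in Lv-Piezo1. Of 10 tested, 6 rose (Acta2, Tagln, Myh11, Cnn1, Mcam and Des) and 2 fell (Kcnj8 and Abcc9). Acta2 was at 51.2 ± 2.27 and 1344 ± 40.5 TPM, Tagln at 219 ± 4.64 and 2730 ± 41.2 TPM, and Kcnj8 at 326 ± 5.61 and 39.1 ± 2.61 TPM. Over all tested genes 4.91% were called higher and 2.76% lower. In bulk RNA, fewer cells of a type and less RNA per cell cannot be told apart, and the part of these marker differences in the enzyme values was not tested.

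In the arginine branch, Nos2 and Arg1 were lower under the Lv-Piezo1 label, while Nos3 was close to 0 in both groups. Nos2 (ENSRNOG00000057443) was at 36.9, 37.1, 33.7 and 33.2 TPM in Lv-Ctrl replicates 1 to 4 and at 7.19, 7.56, 7.34 and 7.77 TPM in Lv-Piezo1 replicates 1 to 4. All 4 Lv-Ctrl values lay far above all 4 Lv-Piezo1 values, and the groups did not overlap. The means were 35.2 ± 2.05 and 7.46 ± 0.254 TPM (SD, n = 4), so that the Lv-Piezo1 mean was 0.212 of the Lv-Ctrl mean. The log2 fold change of -2.10 ± 0.05 (SE) sat at percentile 0.580 of the differences of all tested genes.

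Arg1 (ENSRNOG00000013304), the cytosolic arginase, was at 35.1, 34.1, 34.9 and 31.0 TPM in Lv-Ctrl and at 14.6, 14.5, 14.2 and 13.4 TPM in Lv-Piezo1, and the groups again did not overlap. The means were 33.8 ± 1.90 and 14.2 ± 0.519 TPM, a log2 fold change of -1.19 ± 0.05 (SE) at percentile 2.40. Nos2 and Arg1 were thus both lower under the same label, but not to the same extent. The ratio of Nos2 to Arg1 within a sample was 1.05, 1.09, 0.966 and 1.07 in Lv-Ctrl (mean 1.04 ± 0.0540) and 0.493, 0.521, 0.518 and 0.578 in Lv-Piezo1 (mean 0.527 ± 0.0358). The transcripts were thus near parity per length in Lv-Ctrl, and Arg1 exceeded Nos2 in each Lv-Piezo1 sample.

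Nos3 (ENSRNOG00000009348) was at 0.07, 0.08, 0.12 and 0.02 TPM in Lv-Ctrl and at 0.14, 0.25, 0.32 and 0.18 TPM in Lv-Piezo1. The Lv-Piezo1 values were all higher, but they lay far below the limit of 1 TPM. The neuronal synthase Nos1 was at 0.03 ± 0.0294 and 0.01 ± 0.02 TPM, so that Nos2 made up nearly all synthase transcript per length in both groups.

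**Figure D1:**
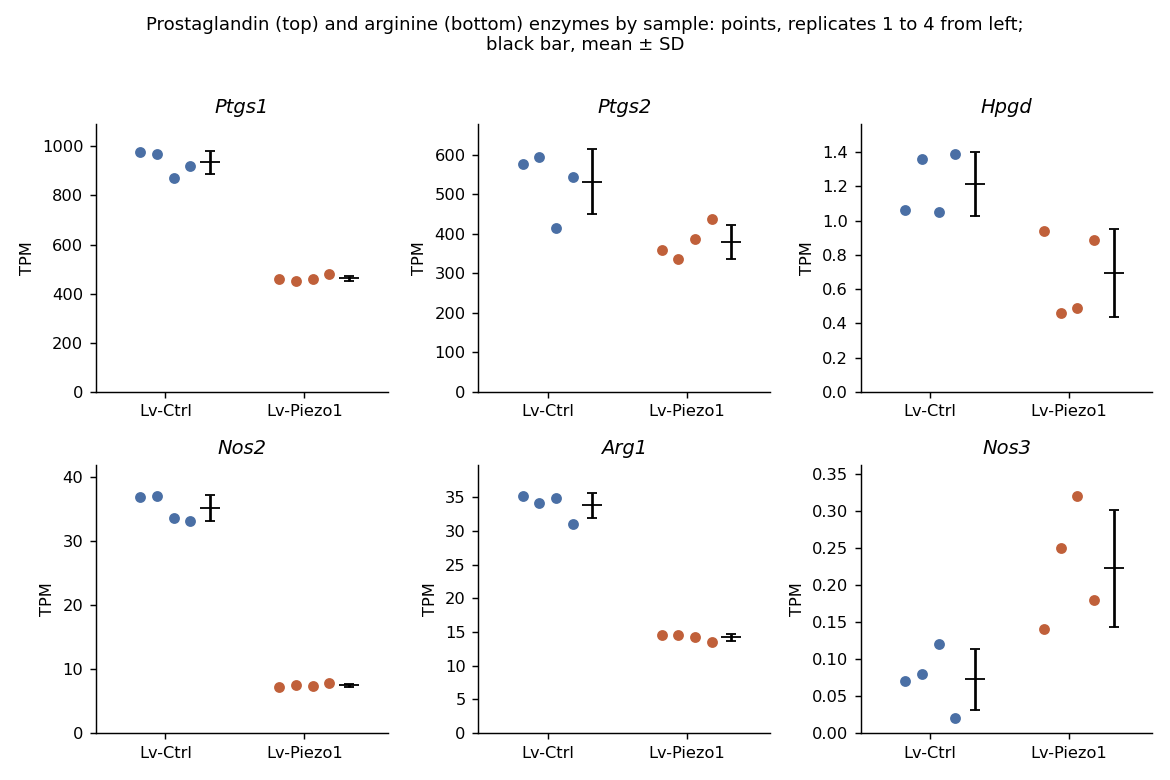
TPM of the 6 enzymes with a value above 0 in each of the 4 Lv-Ctrl and 4 Lv-Piezo1 samples (points, each panel on its own linear axis from 0), with the group mean and SD in black. The groups are apart for Nos2, Arg1, Ptgs1, Hpgd and Nos3 and overlap for Ptgs2, where Lv-Ctrl replicate 3 (414 TPM) lies below Lv-Piezo1 replicate 4 (437 TPM).

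The cyclooxygenases were the most abundant of these enzymes. Their promoters were printed because both enzymes were lower in Lv-Piezo1 to different degrees. Each line gives the 250 bases before the RefSeq start site in the rat build GRCr8, on the plus strand, at chr3:39981169-39981418 for Ptgs1 and chr13:64713813-64714062 for Ptgs2, with motif matches in capitals.
Ptgs1: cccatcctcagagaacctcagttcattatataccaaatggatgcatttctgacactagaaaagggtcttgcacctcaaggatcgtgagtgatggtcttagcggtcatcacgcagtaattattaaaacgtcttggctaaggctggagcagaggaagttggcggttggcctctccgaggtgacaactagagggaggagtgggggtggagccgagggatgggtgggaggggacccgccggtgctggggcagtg
Ptgs2: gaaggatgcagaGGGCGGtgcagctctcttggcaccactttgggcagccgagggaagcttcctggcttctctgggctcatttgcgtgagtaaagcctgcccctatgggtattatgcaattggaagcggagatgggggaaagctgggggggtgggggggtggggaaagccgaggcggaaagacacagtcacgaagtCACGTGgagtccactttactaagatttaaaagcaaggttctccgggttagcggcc
The letters searched on both strands were TATAAA for a TATA box, GGGCGG for a GC box, CACGTG for an E-box and TGACGTCA for a cAMP response element, together with the NF-kB consensus by its usual degenerate letters. The Ptgs2 window held a GC box at base 13 and an E-box at base 196, counted from its 5′ end, and these did not overlap. The Ptgs1 window held none of the 5 motifs. Of the 33469 promoters of the same length, 12.9% held the TATA box letters, 30.5% the GC box, 5.59% the E-box, 1.59% the cAMP response element and 3.54% the NF-kB consensus. RefSeq entries were found for 6 of the 9 genes, and the windows of Nos3, Ptges, Ptgds and Hpgd held the GC box and none of the other motifs.

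Ptgs1 (ENSRNOG00000007415) was at 978, 967, 872 and 921 TPM in Lv-Ctrl and at 459, 450, 460 and 478 TPM in Lv-Piezo1. Each Lv-Ctrl sample exceeded each Lv-Piezo1 sample, and the spread was small in both groups. The means were 934 ± 48.7 and 462 ± 11.8 TPM, a log2 fold change of -1.01 ± 0.04 (SE) at percentile 3.22. This is only just past the limit of 1 in either direction, and the call was lost at -0.97 with quantile normalization, at -0.99 without Lv-Ctrl replicate 1 and at -0.997 without Lv-Ctrl replicate 2.

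Ptgs2 (ENSRNOG00000002525) was at 576, 594, 414 and 543 TPM in Lv-Ctrl and at 358, 336, 385 and 437 TPM in Lv-Piezo1. The lowest Lv-Ctrl sample, replicate 3, lay below the highest Lv-Piezo1 sample, replicate 4, and the groups overlapped. The means were 532 ± 81.1 and 379 ± 43.6 TPM, a log2 fold change of -0.48 ± 0.12 (SE), and -0.59 without Lv-Ctrl replicate 3. The SD of Ptgs2 was 15.3% of its mean in Lv-Ctrl and 11.5% in Lv-Piezo1, against 5.21% and 2.56% for Ptgs1. It was thus the more variable cyclooxygenase and the less different between the labels.

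The balance of the cyclooxygenases differed as well. The ratio of Ptgs2 to Ptgs1 within a sample was 0.589, 0.614, 0.475 and 0.590 in Lv-Ctrl (mean 0.567 ± 0.0622) and 0.781, 0.747, 0.837 and 0.914 in Lv-Piezo1 (mean 0.820 ± 0.0731), with no overlap. Ptgs1 was the higher per length in each of the 8 samples.

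**Figure D2:**
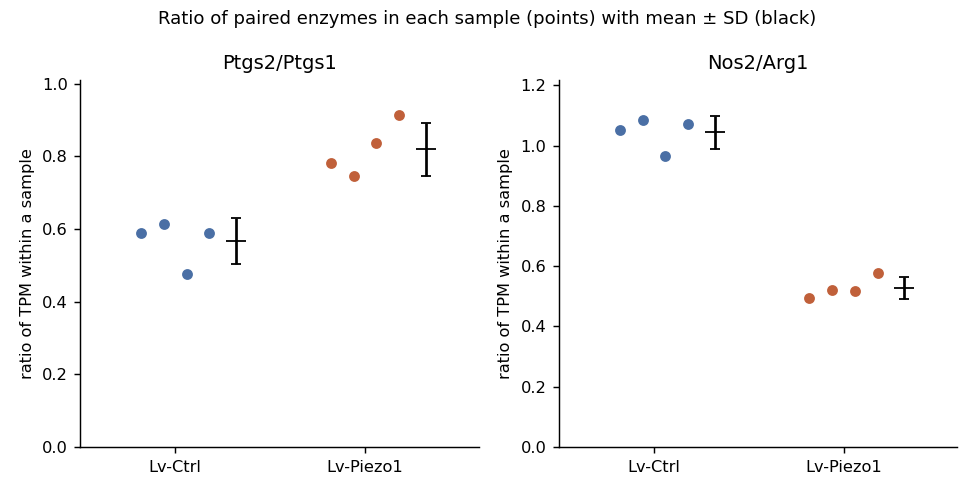
Ratio of Ptgs2 to Ptgs1 (left) and of Nos2 to Arg1 (right), each TPM over TPM within a sample, for the 4 samples of each group (points) with mean and SD in black. The Ptgs2 to Ptgs1 ratio is higher in every Lv-Piezo1 sample (0.747 to 0.914) than in Lv-Ctrl (0.475 to 0.614), and the Nos2 to Arg1 ratio is lower (0.493 to 0.578 against 0.966 to 1.09).

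Hpgd (ENSRNOG00000010610), which oxidises and inactivates prostaglandins, was near the limit for testing. It was at 1.06, 1.36, 1.05 and 1.39 TPM in Lv-Ctrl and at 0.94, 0.46, 0.49 and 0.89 TPM in Lv-Piezo1. The groups did not overlap, but the gap between 0.94 and 1.05 TPM was smaller than the spread within either group. Its mean over all samples, 0.955 TPM, was just outside the limit for testing. Ptgds (ENSRNOG00000015550), the lipocalin-type prostaglandin D synthase, was listed at 0 in all 8 samples. A row with the symbol AABR07054614.1 (ENSRNOG00000008245), which the table describes as prostaglandin I2 synthase, the function of Ptgis, was listed at 0 in all 4 Lv-Ctrl samples and was at 2.41, 2.73, 2.00 and 2.71 TPM in Lv-Piezo1. Its mean of 1.23 TPM over all samples passed the filter of 1 TPM only through the Lv-Piezo1 values. No test, and no fold against a group listed at 0, is therefore given for this row. It does not carry a symbol of the rule, is not counted among the 4 tested enzymes, and was picked after its values were seen.

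Of the 4 tested enzymes, 3 (Nos2, Arg1 and Ptgs1) were past the limits for a called gene (adjusted p under 0.05 and a log2 fold change of 1 or more in either direction), and all 3 were lower in Lv-Piezo1. Over all tested genes 7.67% were called, 4.91% higher and 2.76% lower. Groups did not overlap for 5 of the 7 enzymes with a row, 4 lower and 1 higher, and for 3 of the 4 tested, all lower. Over all tested genes 54.2% did not overlap, 14.5% lower and 39.8% higher. Since the enzymes were chosen on this comparison, nothing is read from these counts. The percentiles of the called enzymes, 0.580 to 3.22, and that of Ptgs2, 8.34, place them as a description only.

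By level, Lv-Ctrl samples ranked Ptgs1, Ptgs2, Nos2, Arg1, Hpgd, Nos3 and Ptgds, and only the neighbours Nos2 and Arg1 had ranges that met. In Lv-Piezo1 the order was the same except that Arg1 stood above Nos2, and no neighbouring ranges met. The SD relative to the mean was 5.82% and 3.40% for Nos2 and 5.62% and 3.66% for Arg1 (Lv-Ctrl and Lv-Piezo1), and reached 56.7% and 35.6% for the barely detected Nos3.

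Among the other genes of the nitric oxide pathway, Ddah1 and Gch1 were called higher in Lv-Piezo1. With median-ratio scaling, and with quantile normalization, Ddah1 was called higher and Slc7a2 lower. The list held 27 genes of arginine supply, cofactor synthesis, synthase regulation and nitric oxide signalling. Of these, 19 were tested, 2 rose and 17 did not pass in limma. Over all tested genes 4.91% were called higher and 2.76% lower. The median log2 difference of the list was 0.22, against 0.14 over all tested genes. Though no gene of the list fell, 4 were lower and 8 higher at an unadjusted p under 0.05 in limma. Without a fold limit, 7626 of all 13103 tested genes had a limma adjusted p under 0.05. Nothing is therefore read from these counts. Ddah1, which degrades the endogenous synthase inhibitor asymmetric dimethylarginine, rose from 23.1 ± 2.38 to 86.9 ± 1.85 TPM (log2 fold change 1.87 ± 0.07 SE, limma adjusted p = 4.1e-08). Gch1, the first enzyme of tetrahydrobiopterin synthesis, rose from 7.62 ± 0.799 to 17.7 ± 0.297 TPM (1.12 ± 0.07, limma adjusted p = 1.5e-06). The log2 fold change of Gch1 was 0.98 with median-ratio scaling and 0.94 with quantile normalization, so that its call was lost under both scalings. Both lay on the other side of 0 from Nos2 under both scalings.

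Arginine transporters and the other arginine-using enzymes did not pass the limits. Slc7a2, a cationic amino acid transporter, was at 16.9 ± 2.60 and 8.04 ± 0.736 TPM (log2 fold change -0.98, limma adjusted p = 5.5e-05), and passed under both scalings. Slc7a1, a transporter of the same family, was at 8.53 ± 0.822 and 10.8 ± 0.630 TPM. The mitochondrial arginase Arg2 was at 1.25 ± 0.299 and 1.80 ± 0.384 TPM with overlapping groups (limma adjusted p = 0.081). Downstream of arginase, ornithine decarboxylase Odc1 was at 747 ± 15.6 and 543 ± 5.32 TPM (log2 fold change -0.46) and ornithine aminotransferase Oat at 167 ± 5.71 and 112 ± 4.20 TPM (-0.56), with limma adjusted p of 7.2e-07 and 2.6e-06 but differences short of the limit. The soluble guanylate cyclase subunits, the nitric oxide receptor, lay below 1 TPM: Gucy1b1 was at 0.282 ± 0.142 and 0.613 ± 0.0822 TPM, and Gucy1a1 and Gucy1a2 did not exceed a mean of 0.015 TPM in either group.

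Along the prostanoid route, genes of arachidonic acid release, prostaglandin reduction and uptake and 1 receptor passed the limits. The tested synthases of the list, Ptges2, Ptges3 and Akr1b1, did not. Ptges was not analysed here, and the row described as prostaglandin I2 synthase (see above) is not in the list. In the list of 30 genes, 28 had a row, 23 rows were tested, 1 rose, 4 fell and 18 did not pass. Over all tested genes 4.91% were called higher and 2.76% lower. The median log2 difference of the list was -0.06, against 0.14 over all tested genes. At an unadjusted p under 0.05 in limma, 8 rows of the list were higher and 8 lower. Nothing is read from these counts. The secreted phospholipase Pla2g2a fell from 383 ± 23.3 to 71.6 ± 4.44 TPM (log2 fold change -2.40 ± 0.06 SE, limma adjusted p = 3.6e-09), and the secreted Pla2g5 from 5.47 ± 0.621 to 1.58 ± 0.388 TPM (-1.33 ± 0.13, limma adjusted p = 2.3e-05). The cytosolic phospholipase Pla2g4a was at 89.1 ± 7.62 and 118 ± 5.39 TPM (0.41, limma adjusted p = 5.0e-04), in the other direction but short of the limit. The calcium-independent Pla2g6 was at 14.5 ± 0.499 and 18.5 ± 1.12 TPM. Pla2g7, a platelet-activating factor acetylhydrolase, was at 366 ± 11.4 and 235 ± 5.40 TPM (-0.64).

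Among terminal synthases, Ptges2 was at 22.1 ± 0.777 and 23.4 ± 1.47 TPM (log2 difference 0.08, limma adjusted p = 0.22) and Ptges3, also a chaperone partner, at 181 ± 7.44 and 173 ± 5.22 TPM (-0.07, limma adjusted p = 0.17). Both overlapped between groups. Akr1b1, an aldose reductase with prostaglandin F synthase activity, was at 611 ± 29.2 and 522 ± 12.9 TPM (-0.23). The haematopoietic prostaglandin D synthase Hpgds was listed at 0 in all samples, and the thromboxane synthase Tbxas1 did not exceed a mean of 0.0225 TPM.

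Carbonyl reductase Cbr1, which can convert prostaglandin E2 to F2α, passed the limits in 1 of its 3 rows. That row (ENSRNOG00000049693) was at 87.4, 82.4, 31.9 and 79.4 TPM in Lv-Ctrl and at 20.4, 55.2, 11.4 and 29.4 TPM in Lv-Piezo1, with overlapping groups (log2 fold change -1.36 ± 0.47 SE, limma adjusted p = 0.033). Lv-Ctrl replicate 3 stood apart from its group. The symbol is shared by 3 rows, between which near-identical copies may split reads, and the call was lost without the filter on low TPM and without any of Lv-Ctrl replicates 1, 2 and 4 or Lv-Piezo1 replicates 1, 3 and 4 (-1.73 to -0.9999 over all single omissions). A further Cbr1 row (ENSRNOG00000049911) was at 171 ± 4.65 and 124 ± 9.61 TPM, and the remaining row was listed at 0.

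The transporter Slco2a1, which takes up prostaglandins ahead of their oxidation by Hpgd, rose from 6.60 ± 0.535 to 19.8 ± 1.36 TPM (log2 fold change 1.45 ± 0.07 SE, limma adjusted p = 2.9e-07). The exporter Abcc4 was at 5.90 ± 0.631 and 5.60 ± 0.353 TPM (limma adjusted p = 0.55). Ptgr1, a reductase of the inactivation route, was at 47.4 ± 1.97 and 67.0 ± 4.32 TPM (0.49, limma adjusted p = 4.7e-05), and Ptgr2 at 14.8 ± 2.00 and 13.5 ± 1.79 TPM.

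Of the receptors, Ptgfr, for prostaglandin F2α, had the highest level in Lv-Ctrl and was the receptor that passed the limits. It fell from 93.5 ± 11.9 to 37.9 ± 1.25 TPM (log2 fold change -1.27 ± 0.08 SE, limma adjusted p = 2.2e-06). The prostaglandin E2 receptor Ptger2 was at 10.7 ± 1.68 and 4.91 ± 0.147 TPM (-0.97, limma adjusted p = 4.1e-05), short of the limit, and passed under both scalings. Ptger1 was at 8.60 ± 0.941 and 7.58 ± 0.277 TPM and Ptger4 at 2.56 ± 0.972 and 3.65 ± 0.253 TPM, with limma adjusted p of 0.12 and 0.098. The prostacyclin receptor Ptgir was at 5.47 ± 2.20 and 8.92 ± 1.41 TPM with overlapping groups (0.67, limma adjusted p = 0.033). Ptger3, Ptgdr2 and the thromboxane receptor Tbxa2r lay below 1 TPM on average.

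**Figure D3:**
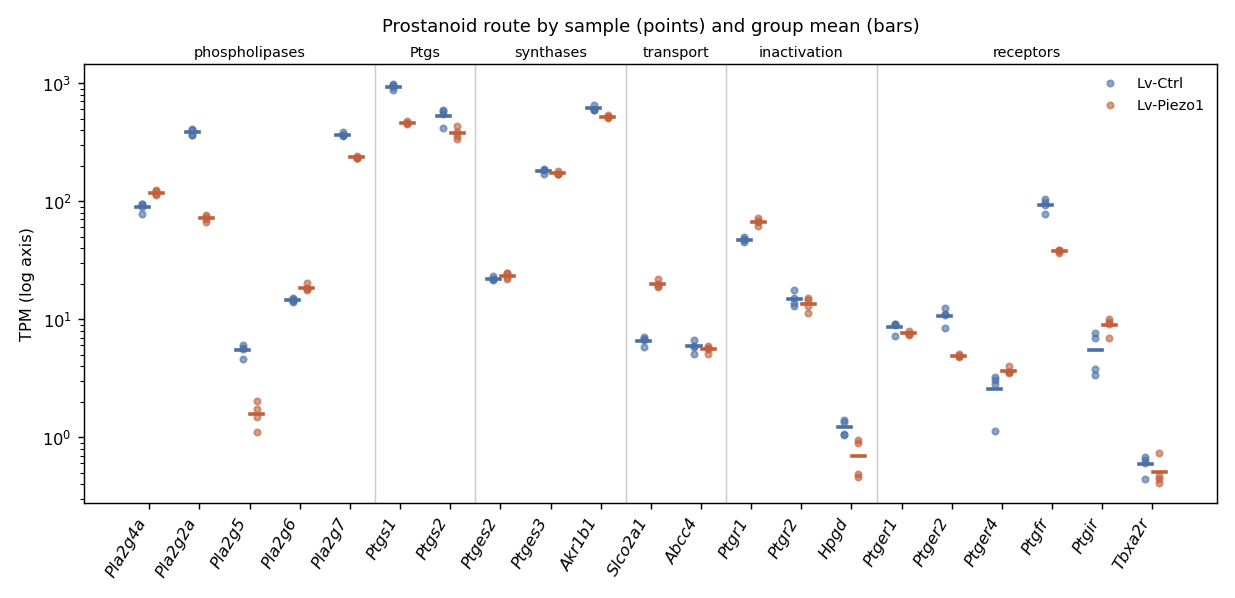
TPM on a log axis of genes of the prostanoid route in the 4 Lv-Ctrl and 4 Lv-Piezo1 samples (points) with the group means (bars), ordered by role from phospholipases to receptors. Pla2g2a (383 and 71.6 TPM), Ptgs1 (934 and 462 TPM) and Ptgfr (93.5 and 37.9 TPM) are lower in Lv-Piezo1, Slco2a1 (6.60 and 19.8 TPM) is higher, and the synthases Ptges2 and Ptges3 overlap.

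Other branches of arachidonic acid metabolism and the cytokine route that is known to induce Nos2 and Ptgs2 were compared in the same way. In the list of 13 other eicosanoid enzymes, 8 were tested and 2 fell. Over all tested genes 4.91% were called higher and 2.76% lower. The median log2 difference of the list was -0.67, against 0.14 over all tested genes. No enzyme of the list rose in limma, where 2 were higher and 5 lower at an unadjusted p under 0.05. Nothing is read from these counts, since 7626 of all 13103 tested genes had a limma adjusted p under 0.05 without a fold limit. Cyp2j4, an epoxygenase, fell from 9.58 ± 0.628 to 2.62 ± 0.434 TPM (log2 fold change -1.55 ± 0.10 SE, limma adjusted p = 1.5e-06), and the soluble epoxide hydrolase Ephx2 from 3.20 ± 0.765 to 0.695 ± 0.220 TPM (-1.30 ± 0.16, limma adjusted p = 1.1e-04). The count was 4 without any of Lv-Ctrl replicates 3 and 4 or Lv-Piezo1 replicates 1 and 2, where Alox12 (-0.97) and Mgll (0.999) crossed the limit from just short of it.

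In the list of 21 cytokine and NF-kB genes, 17 were tested and 2 rose. Over all tested genes 4.91% were called higher and 2.76% lower. The median log2 difference of the list was 0.42, against 0.14 over all tested genes. No gene of the list fell in limma, where 13 were higher and 1 lower at an unadjusted p under 0.05. Without a fold limit, 7626 of all 13103 tested genes had a limma adjusted p under 0.05. Groups did not overlap for 13 higher and 1 lower of the 17, against 39.8% higher and 14.5% lower over all tested genes. The list was not tested as a set. Tnfaip3, an NF-kB target that restrains the pathway, rose from 2.18 ± 0.407 to 7.79 ± 0.771 TPM (log2 fold change 1.47 ± 0.11 SE, limma adjusted p = 5.1e-06), and Il1rap, the accessory chain of the interleukin-1 receptor, from 5.17 ± 0.521 to 14.6 ± 1.29 TPM (1.34 ± 0.08, limma adjusted p = 1.4e-06). Il1a was at 19.1 ± 1.22 and 30.6 ± 1.46 TPM and its receptor Il1r1 at 12.0 ± 0.886 and 20.4 ± 1.03 TPM, higher in Lv-Piezo1 but short of the limit. Hif1a was at 70.85 ± 8.29 and 140 ± 13.6 TPM (0.98, limma adjusted p = 2.6e-05), just short of the limit. It passed when Lv-Ctrl replicate 1, 2 or 4 or Lv-Piezo1 replicate 1 or 2 was left out. Nfkbia, the inhibitor that NF-kB induces, was at 109 ± 7.97 and 83.7 ± 2.20 TPM (-0.37, limma adjusted p = 3.1e-04). The inducers Il1b and Tnf lay below 1 TPM and Ifng was listed at 0.

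**Figure D4:**
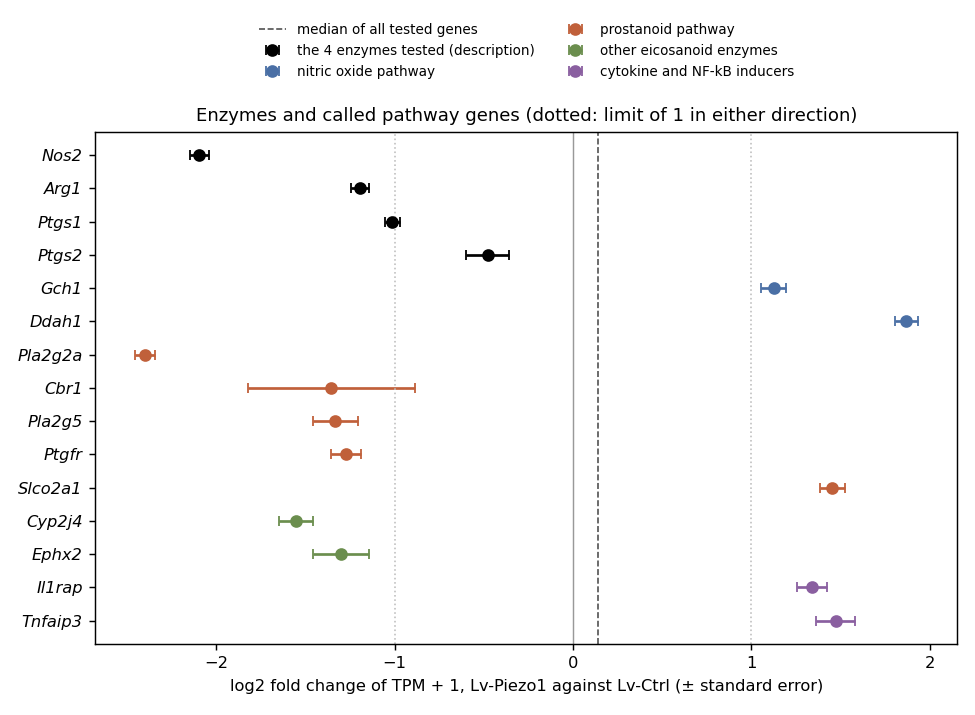
Log2 fold change of TPM + 1 (Lv-Piezo1 against Lv-Ctrl) with its standard error for the 4 tested enzymes (black, description only) and the called genes of the 4 pathway lists (colours). The dashed line marks the median of all tested genes (0.14) and the dotted lines the limit of 1; Nos2 (-2.10) and Pla2g2a (-2.40) lie farthest to the left and Ddah1 (1.87) farthest to the right.

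Genes with the most similar pattern over the 8 samples were listed for the 4 tested enzymes by Pearson's r of log2(TPM + 1). Because the samples form 2 groups, r here mostly carries the difference between the labels. For Nos2 they were Spry1 (r = 0.99998), Vps52 and Sod3. For Arg1 they were Gpx3 (r = 0.9993), Rspo1 and Txndc12. Ptgs1 was followed most closely by Mgat1 (r = 0.9997), Medag and Il1rl1, and Ptgs2 by Sptan1 (r = 0.997), Itga8 and Ids.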

How the data were processed

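The authors deposited TPM (transcript levels scaled for length and library size), computed after removal of adapter, poly-N and low-quality reads, mapping with HISAT2 and assembly with StringTie. The methods of the study name FPKM and DESeq, and the submitters' processing notes name DESeq2 and mm10, a mouse build, whereas the gene identifiers are those of rat. Strand handling is not given in the sources used here. Columns were matched to samples through the labels, and the authors' mean columns were not used.

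From the deposited TPM, log2(TPM + 1) was fitted with limma 3.58.1 in R 4.3.3 (trend, empirical Bayes, Benjamini-Hochberg) for 13103 genes whose mean over the samples was 1 TPM or more, using all 8 samples without a block. Fold changes on this scale understate changes of low genes. A gene was called, and is said to have risen or fallen, when its adjusted p was under 0.05 and its log2 fold change 1 or more in either direction. Errors of TPM are SD with n = 4. On simulated data for this comparison with 13103 genes, recovery meant an adjusted p below 0.05 in the right direction, without the fold limit. The changed genes were drawn from the better expressed ones only. So counted, 85.1% of genes changed 1.5-fold and 100% of those changed 2-fold or 4-fold were recovered, and 12 unchanged genes had an adjusted p below 0.05. These shares are therefore not the sensitivity of the full call rule. Promoters came from RefSeq (GRCr8). Figures were drawn with matplotlib 3.10.9.

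The members and lists were chosen with earlier results of these data known. Named were the members, Piezo1, up to 5 called genes in each direction of each pathway list, tested receptors and synthases of the first 2 lists, markers and the 3 genes most correlated with each member at a mean of at least 5 TPM. Other list genes named without a call (such as Slc7a2, Odc1, Oat, Pla2g7, Ptgr1, Alox12, Mgll, Il1a, Il1r1, Hif1a and Nfkbia) were chosen after their values were seen. Alternatives were a pseudocount of 0.1, no filter or a limit of 5 on mean TPM, quantile normalization, median-ratio scaling, no trend, no fold threshold, a replicate block and leaving out each sample.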

Additional observations from a re-analysis of the deposited data

Results flagged for a closer look

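The Cbr1 row ENSRNOG00000049693 was at 31.9 TPM in Lv-Ctrl replicate 3, far below the other 3 samples of its group, with a gap to the nearest of 0.857 of the group's range, past Dixon's 95% critical value for 4 samples. This was the only such sample in 36 groups of values examined, and chance gives about 1 in 20. The row described as prostaglandin I2 synthase has the function of the chosen enzyme Ptgis but not its symbol, and is in no pathway list. It had a mean of 2.46 ± 0.341 TPM in Lv-Piezo1 and was listed at 0 in every Lv-Ctrl sample. It passed the filter on low TPM only through Lv-Piezo1, so no test is given for it.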

How the results depend on the processing

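Of the single-gene log2 fold changes recomputed under the alternatives, 210 kept their direction and side of the limits and 12 kept their direction but were no longer past them; none turned its direction. Among all tested genes 1005 were called (644 higher, 361 lower, 64.1% higher), 628 with a mean TPM of at least 5 (59.2% higher) and 7626 with no fold change threshold. Scaling moved the split: 52.3% of the 982 genes called after median-ratio scaling and 48.8% of the 948 after quantile normalization were higher. With a pseudocount of 0.1, 4 genes were called in the nitric oxide list and 4 among the other eicosanoid enzymes. At a mean TPM of at least 5, 1 was called among the other eicosanoid enzymes, 1 in the cytokine list, 1 annulus marker and 0 endothelial markers, where fewer genes were tested (Egfl7 alone in the last list). With no fold threshold, 12 were called in the nitric oxide list, 16 in the prostanoid list, 7 among the other eicosanoid enzymes, 14 in the cytokine list, 12 annulus markers and 2 macrophage markers, and Piezo1 (0.38) passed. Leaving out each sample gave 1006 to 1030 genes in all, 2 to 3 of the members, 2 to 3 in the nitric oxide list, 4 to 6 in the prostanoid list, 2 to 4 among the other eicosanoid enzymes, 2 to 3 in the cytokine list and log2 fold changes of -2.12 to -2.07 for Nos2, -1.23 to -1.17 for Arg1, -1.05 to -0.99 for Ptgs1, -0.59 to -0.42 for Ptgs2 and 0.33 to 0.43 for Piezo1. Per the methods, cells of an isolation were divided among treatments, so groups may share isolations, but no source used here says that a replicate number marks an isolation. Same-numbered samples had correlations of their deviations from -0.058 to -0.012, which shows no measurable pairing by number and does not show that the samples were unpaired. With the replicate block 1004 genes were called, 997 of them shared with the 1005, and 3 members. The depth is unknown, so the counting error of values below 1 TPM cannot be given. The causes of these differences were not tested.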

Other observations

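The leukotriene genes, which share arachidonic acid with the cyclooxygenases, were not described above, and those named here were chosen after their values were seen. The 5-lipoxygenase Alox5, which starts the branch, had a mean of 0.04 TPM in Lv-Piezo1 and was listed at 0 in Lv-Ctrl, and its activating protein Alox5ap was at 0.602 ± 0.379 and 0.708 ± 0.346 TPM. The leukotriene A4 hydrolase Lta4h was at 52.3 ± 2.31 and 90.6 ± 3.22 TPM (log2 difference 0.78), and the membrane glutathione transferases Mgst2 and Mgst3 were at 1070 ± 134 and 682 ± 51.5 TPM (-0.64) and at 126 ± 11.4 and 77.5 ± 4.66 TPM (-0.69). Lta4h, Mgst2 and Mgst3 did not pass both limits in limma, though their groups did not overlap, and Alox5 and Alox5ap were not tested. The leukotriene C4 synthase Ltc4s, also not tested, was listed at 0 in all samples but Lv-Ctrl replicate 1 (0.60 TPM).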
